A study of Mus musculus with 16 samples.

Results

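The genes described here are 10 genes of the NF-κB pathway: the 5 subunits Nfkb1, Nfkb2, Rel, Rela and Relb, the inhibitors Nfkbia and Nfkbie, and the regulators Tnfaip3, Traf1 and Ikbke. They were taken by gene name from a table of read counts that holds 25640 genes, and all 10 were among the 13708 genes with enough reads to be tested. The RNA came from follicular B cells (FoB), which are resting B cells of the spleen, and from germinal center B cells (GCB), which divide and mutate their antibody genes after immunization. Cells were sorted from spleens of C57BL/6 mice aged 10 weeks, 7 days after an injection of 100 µg NP-CGG, a hapten on a carrier protein, in alum. Every mouse carried Rock2flox/flox alleles, so the group called WT differed from cKO in having no CD23-Cre. In cKO the Cre is driven by CD23, a surface protein that B cells gain as they mature, so other cells keep Rock2, which encodes a kinase of the cytoskeleton. Each genotype and cell type together made 1 of 4 groups, with 3 libraries apiece, numbered 1 to 3. The labels do not say that the numbers are separate animals, so p-values measure the spread between these libraries, which may be technical.

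NF-κB proteins bind DNA as pairs of subunits. In resting cells the IκB inhibitors, such as the products of Nfkbia and Nfkbie, hold them in the cytoplasm, and signals from the antigen receptor, CD40 or Toll-like receptors free them by having the IκB proteins degraded. A second, non-canonical route works through the product of Nfkb2 and its partner RelB. Several genes of the pathway are themselves switched on by NF-κB and then limit or sustain it, and follicular B cells rely on such signals to survive.

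Promoters of the members were examined for the κB consensus, the DNA motif that NF-κB recognises, because genes under feedback often carry it. RefSeq promoters (GRCm38.p6) of 300 bases were searched on both strands, from 250 bases before the start of the transcript, and overlapping matches were each counted. Of the 8 members with an entry, 5 held an exact match, namely Nfkb2, Rel, Nfkbia, Nfkbie and Tnfaip3, against 5.14% of 27025 genes. Rela, Traf1 and Ikbke held none in this window, and Nfkb1 and Relb are named only. The stretches around the exact matches are shown for 1 start of each of these 5 genes. Whether a match goes with a change in level was not tested. Capitals mark the bases of exact matches on either strand.
Nfkb2, first start, chr19:46304668-46304765, plus strand: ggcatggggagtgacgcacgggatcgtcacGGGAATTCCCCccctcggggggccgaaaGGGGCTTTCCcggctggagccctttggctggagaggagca
Rel, chr11:23771021-23771091, minus strand: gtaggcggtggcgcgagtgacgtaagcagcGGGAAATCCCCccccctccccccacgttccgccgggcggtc
Nfkbia, chr12:55492637-55492706, minus strand: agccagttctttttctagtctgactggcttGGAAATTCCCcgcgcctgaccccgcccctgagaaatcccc
Nfkbie, chr17:45555564-45555633, plus strand: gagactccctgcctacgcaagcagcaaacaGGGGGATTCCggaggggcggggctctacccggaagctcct
Tnfaip3, first start, chr10:19015383-19015565, minus strand: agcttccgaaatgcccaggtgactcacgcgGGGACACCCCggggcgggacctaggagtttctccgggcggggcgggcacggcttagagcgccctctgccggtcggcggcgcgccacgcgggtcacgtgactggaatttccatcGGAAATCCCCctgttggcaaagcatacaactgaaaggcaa
In Nfkb2 and Rel the run of 11 capitals holds overlapping matches. Allowing 1 mismatch outside the leading G bases, 7 of the 8 members matched against 36.2% of all genes, and Traf1 was the one without. A match in these letters is a description of the sequence and does not show that NF-κB binds there in these cells.

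**Figure D1:**
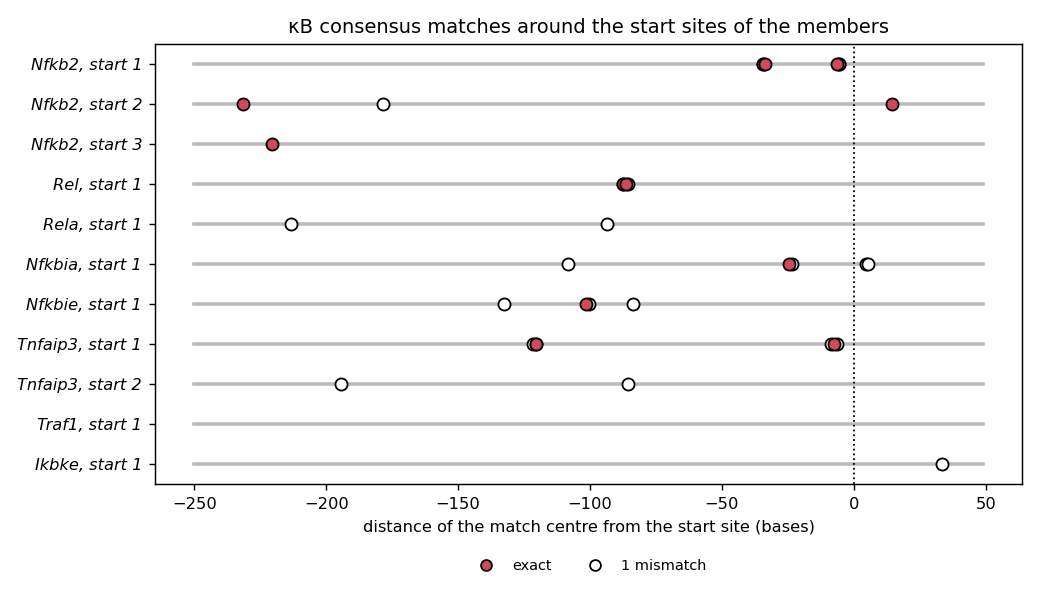
Distance in bases of each κB consensus match from the transcript start (dotted line at 0), for every RefSeq promoter of the members; filled points are exact matches, open points have 1 mismatch, and the grey lines are the windows searched. Exact matches lie in 5 of 8 genes, and Traf1 has no point. The windows of the other two Nfkb2 starts overlap and share 1 site.

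Across the libraries, total counts were between 23349512 and 26967943. Rock2 itself was lower in every cKO library than in every WT library of the same cell type, at 87.4 to 123 CPM (counts scaled to library size by TMM) against 129 to 151 in FoB, and at 92.6 to 131 against 145 to 198 in GCB. The summed level of 8 naive follicular markers was 7328 to 11958 CPM in FoB and 786 to 1317 in GCB, and that of 8 germinal center markers was 130 to 293 in FoB and 3764 to 5234 in GCB. Of the T cell list, the defining marker Cd3e was at most 2.38 CPM in any library, and the sum of that list, 62.9 to 91.2 CPM, came mostly from Lck. Cd4 was at most 4.67 CPM and Tcf7 at most 9.80. In GCB numbers 1 to 3, Cd3e was at 0.27, 0.25 and 0.08 CPM in WT and 0.64, 0.84 and 0.23 in cKO. Tcf7 was there at 3.06, 2.63 and 2.53 CPM in WT and 8.23, 8.45 and 4.05 in cKO. Lck was there at 57.5, 72.3 and 72.9 CPM in WT and 67.4, 60.2 and 60.6 in cKO. The NK cell list summed to 13.1 to 33.3 CPM in FoB and 4.29 to 8.01 in GCB. The list for macrophages and monocytes summed to 19.7 to 33.1 CPM in FoB and 9.93 to 22.3 in GCB. A list of 4 genes of B cells in general summed to 6856 to 8787 CPM in FoB and 4070 to 5126 in GCB. The plasma cell, dendritic cell and stroma lists also differed between the cell types. The plasma cell list summed to 122 to 215 CPM in FoB and 969 to 1710 in GCB, mostly from Jchain in GCB. Xbp1 of that list was at 94.3 to 122 CPM in FoB and 144 to 251 in GCB. Prdm1 was at 2.03 to 3.11 CPM in FoB and 2.45 to 8.17 in GCB. Sdc1 went the other way, at most 13.1 CPM in FoB and 2.82 in GCB. The dendritic cell list summed to 9.43 to 15.2 CPM in FoB and 63.0 to 71.4 in GCB, mostly from Flt3 in GCB. There Xcr1 was at most 0.20, Zbtb46 at most 1.81 and Siglech at most 3.50. The stroma list summed to 329 to 402 CPM in FoB and 83.0 to 108 in GCB, mostly from Pecam1. Its other genes were low in all libraries, with Col1a1 at most 0.04, Pdgfrb at most 0.24 and Cdh5 at most 4.97. The list for marginal zone and B-1 cells overlapped between all groups. It summed to 422 to 558 CPM in WT FoB, 441 to 631 in cKO FoB, 439 to 660 in WT GCB and 524 to 664 in cKO GCB. Bhlhe41 of that list was at 4.43 to 6.70 CPM in WT GCB and 12.6 to 27.3 in cKO GCB. The 4 libraries numbered 2 had the highest share of mitochondrial reads in their groups, 3.72% to 5.50%, against 1.05% to 2.95% in the others. The part of any of these in the results below was not tested. On the first principal component of all genes, WT FoB 1 and cKO GCB 1 lay nearest to the opposite cell type, so results were also computed without them.

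The first comparison asks how the pathway genes differ between the cell types. In WT, 7 of the 10 members fell in GCB (Nfkb1, Nfkb2, Relb, Nfkbia, Nfkbie, Tnfaip3 and Ikbke), and Traf1 rose. Over all tested genes, 22.8% fell and 25.6% rose at the same threshold, an adjusted p below 0.05 in edgeR's quasi-likelihood test. In cKO, 7 members again fell (the same list with Rel in place of Ikbke) and Traf1 rose, where 21.8% of all genes fell and 24.8% rose. The median log2 fold change of the members was -1.24 in WT and -0.73 in cKO, while that of all tested genes was -0.01 and -0.02. The 3 FoB and 3 GCB libraries did not overlap for those 8 members in WT (background 26.8% lower, 29.5% higher) and for those 8 in cKO (background 25.2% lower, 28.3% higher). In bulk samples such as these, fewer cells with a transcript and less of it per cell cannot be told apart.

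**Figure D2:**
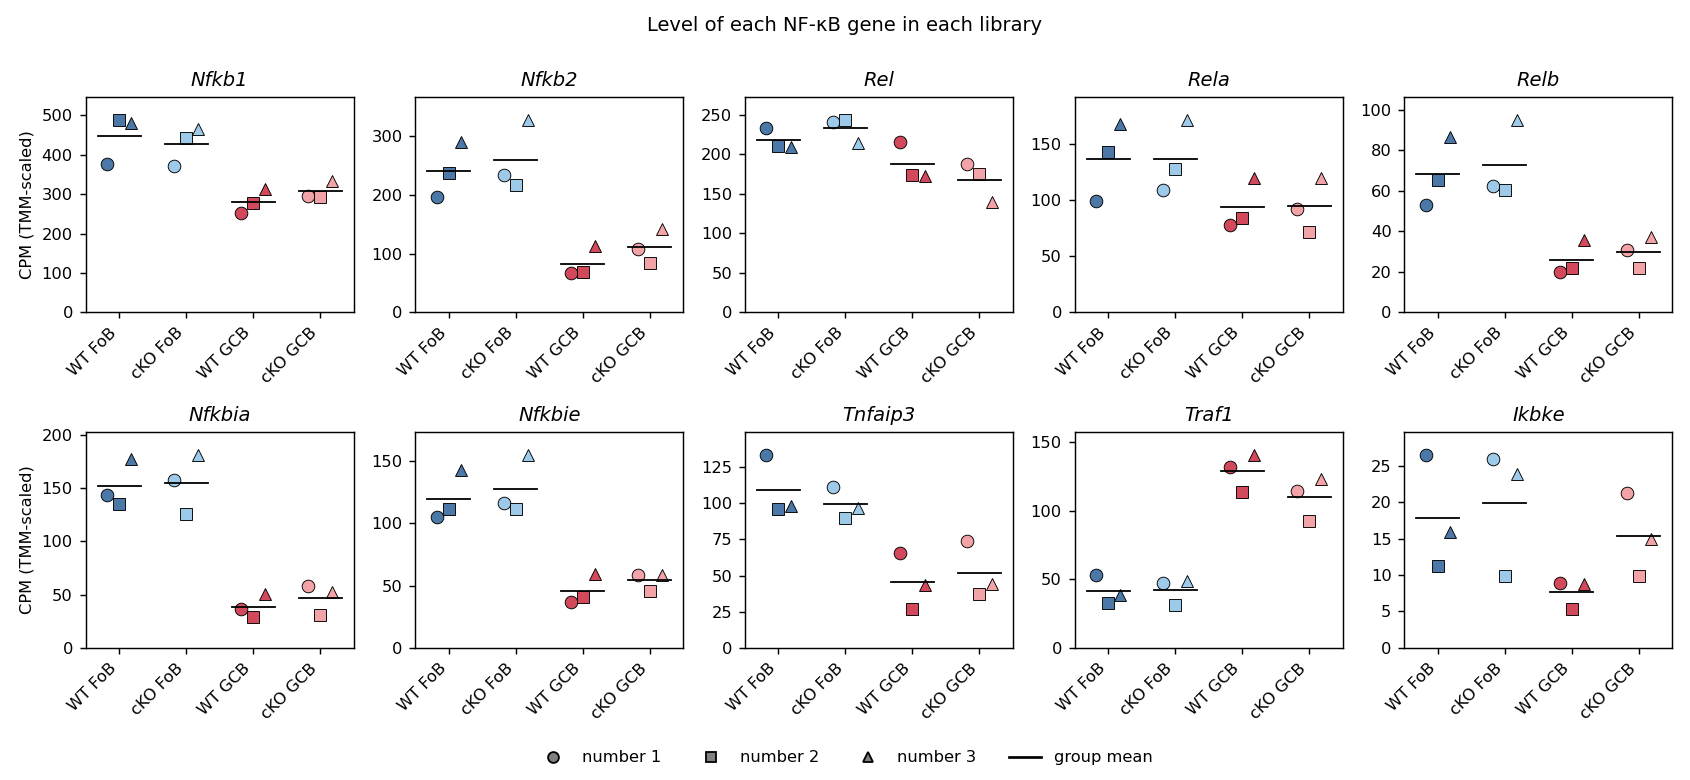
Level of each of the 10 genes in each library, in CPM on a linear axis from 0, by group; the marker shape gives the library's number and the bar the mean of 3. The blue FoB points lie above the red GCB points for most genes, and below them for Traf1.

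Nfkbia (ENSMUSG00000021025, chr12:55489409-55492647) encodes IκBα, the inhibitor that NF-κB induces and that returns it to the cytoplasm. Its level in WT was 143, 135 and 177 CPM in FoB numbers 1 to 3 and 36.4, 28.8 and 50.8 CPM in GCB. In cKO it was 158, 125 and 181 CPM in FoB and 57.8, 30.9 and 52.7 CPM in GCB. Every GCB library was thus far below every FoB library, and the fall was the largest among the members in both genotypes. In WT it was 3.93-fold, a log2 change of -1.97 ± 0.27 (SE, n = 3 against 3, edgeR adjusted p = 8.59e-05), and in cKO 3.29-fold, -1.72 ± 0.27 (edgeR adjusted p = 0.000257).

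Nfkbie (ENSMUSG00000023947, chr17:45555700-45563169) encodes IκBε, an inhibitor known in B cells for restraining c-Rel complexes. WT FoB libraries held 105, 112 and 143 CPM, and WT GCB libraries 36.8, 40.6 and 59.3 CPM. In cKO the values were 116, 111 and 155 CPM in FoB and 58.6, 46.1 and 58.6 CPM in GCB. The groups were separate in both genotypes, with a log2 change of -1.40 ± 0.21 in WT (edgeR adjusted p = 0.00021) and -1.23 ± 0.21 in cKO (edgeR adjusted p = 0.000575).

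Nfkb2 (ENSMUSG00000025225, chr19:46300994-46312400) encodes the precursor that is cut to p52 in the non-canonical route. It stood at 195, 237 and 290 CPM in WT FoB and at 66.5, 68.6 and 112 CPM in WT GCB. The cKO libraries held 233, 216 and 327 CPM in FoB and 108, 83.8 and 142 CPM in GCB. It fell 2.92-fold in WT, with a log2 change of -1.55 ± 0.27 (edgeR adjusted p = 0.000525), and 2.33-fold in cKO, with -1.22 ± 0.27 (edgeR adjusted p = 0.00263). RefSeq places the lncRNA 4833438C02Rik and the gene Psd over part of Nfkb2, and whether the counting used strand is not given in the sources used here, so reads of these genes cannot be told apart where they overlap. The same holds for Nfkb1 with Gm46827, Traf1 with Gm52552, and Ikbke with Gm28913 and Gm51644.

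Relb (ENSMUSG00000002983, chr7:19606217-19629438), encodes the usual partner of p52, and it fell in both genotypes. Its level was 52.9, 65.5 and 86.5 CPM in WT FoB and 20.1, 21.8 and 35.7 CPM in WT GCB. In cKO it was 62.2, 60.5 and 95.1 CPM in FoB and 30.9, 21.9 and 37.2 CPM in GCB. The lowest FoB library stayed above the highest GCB library in each genotype, and the log2 change was -1.40 ± 0.29 in WT (edgeR adjusted p = 0.00177) and -1.27 ± 0.29 in cKO (edgeR adjusted p = 0.00336).

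The 3 remaining subunits differed less between the cell types. Nfkb1 (ENSMUSG00000028163, chr3:135584655-135691969) encodes the precursor of p50, which pairs with p65 or c-Rel. It stood at 377, 489 and 479 CPM in WT FoB and 253, 278 and 312 CPM in WT GCB, and at 371, 442 and 465 CPM in cKO FoB and 295, 293 and 333 CPM in cKO GCB. Its groups did not overlap, and the log2 change was -0.67 ± 0.15 in WT (edgeR adjusted p = 0.00297) and -0.47 ± 0.15 in cKO (edgeR adjusted p = 0.0223). The cKO call was lost without any of cKO FoB 2, cKO FoB 3, cKO GCB 1 or cKO GCB 2, with edgeR adjusted p between 0.0519 and 0.0868 in those fits.

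Rela (ENSMUSG00000024927, chr19:5637442-5648134) encodes p65, the main activating subunit of the canonical route. Its level was 99.2, 142 and 167 CPM in WT FoB and 77.8, 83.7 and 120 CPM in WT GCB. In cKO it was 109, 128 and 171 CPM in FoB and 92.0, 71.1 and 120 CPM in GCB. The groups overlapped, and the number 3 library was the highest in every group. The log2 change was -0.54 ± 0.26 in WT (edgeR adjusted p = 0.108) and -0.53 ± 0.26 in cKO (edgeR adjusted p = 0.116). With the replicate number in the fit, the change was -0.54 in WT (edgeR adjusted p = 0.00161) and -0.52 in cKO (edgeR adjusted p = 0.00214). This blocked fit called 9 members lower and 1 higher in WT, and 8 lower and 1 higher in cKO. It called 34.3% of all genes lower and 35.2% higher in WT, and 34.3% of all genes lower and 34.7% higher in cKO. Without the block, the WT call was also reached without WT FoB 1 (0.0447) or without WT GCB 3 (0.0479).

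Rel (ENSMUSG00000020275, chr11:23736847-23770969) encodes c-Rel, the subunit best known for B cell proliferation. It stood at 233, 211 and 209 CPM in WT FoB and at 216, 174 and 173 CPM in WT GCB, where the first GCB library lay within the FoB range. In cKO it was 241, 244 and 215 CPM in FoB and 188, 175 and 139 CPM in GCB, with no overlap. The log2 change was -0.21 ± 0.15 in WT (edgeR adjusted p = 0.253, and 0.0439 with the replicate number in the fit) and -0.48 ± 0.15 in cKO (edgeR adjusted p = 0.0189). The cKO call was lost without cKO FoB 1 (0.0537) or cKO GCB 3 (0.079). A difference between the genotypes in this change was not shown, with an interaction of -0.26 ± 0.21 on the log2 scale (edgeR adjusted p = 1.00).

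Tnfaip3 (ENSMUSG00000019850, chr10:19000910-19015410) encodes A20, an ubiquitin-editing enzyme that is induced by NF-κB and shuts the pathway down. WT FoB libraries held 133, 95.7 and 98.3 CPM, and WT GCB libraries 65.5, 26.8 and 43.6 CPM. The cKO libraries held 111, 89.7 and 96.9 CPM in FoB and 73.6, 37.4 and 44.3 CPM in GCB. Its levels were separate between cell types, and number 1 was the highest and number 2 the lowest in 4 of 4 groups. The log2 change was -1.27 ± 0.32 in WT (edgeR adjusted p = 0.00569) and -0.94 ± 0.31 in cKO (edgeR adjusted p = 0.0273). In cKO the call was lost without cKO FoB 1, cKO FoB 3, cKO GCB 2 or cKO GCB 3, with edgeR adjusted p between 0.0513 and 0.0884.

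Traf1 (ENSMUSG00000026875, chr2:34941750-34961812) encodes an adaptor that binds receptors of the TNF receptor family and is itself a known NF-κB target. It was the one member with higher levels in GCB. WT FoB libraries held 53.3, 32.9 and 38.5 CPM, and WT GCB libraries 132, 114 and 141 CPM. In cKO the values were 47.4, 31.4 and 48.9 CPM in FoB and 114, 92.9 and 123 CPM in GCB. The lowest GCB library was above the highest FoB library in each genotype. The rise was 3.10-fold in WT, a log2 change of 1.63 ± 0.22 (edgeR adjusted p = 7.64e-05), and 2.59-fold in cKO, 1.37 ± 0.22 (edgeR adjusted p = 0.000301).

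Ikbke (ENSMUSG00000042349, chr1:131254600-131279601) encodes IKKε, an IκB kinase relative known for antiviral interferon signaling. Its level in WT was 26.5, 11.2 and 15.9 CPM in FoB and 8.98, 5.38 and 8.83 CPM in GCB. In cKO it was 25.9, 9.92 and 23.9 CPM in FoB and 21.2, 9.86 and 14.9 CPM in GCB. WT groups were separate, whereas the cKO groups overlapped over nearly their whole range. The log2 change was -1.21 ± 0.42 in WT (edgeR adjusted p = 0.0319) and -0.38 ± 0.41 in cKO (edgeR adjusted p = 0.476). The WT call was lost without WT FoB 1, where the edgeR adjusted p was 0.146, and without WT GCB 1, 2 or 3, where it lay between 0.0524 and 0.113. It was also lost without WT FoB 1 and cKO GCB 1 together (0.138).

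**Figure D3:**
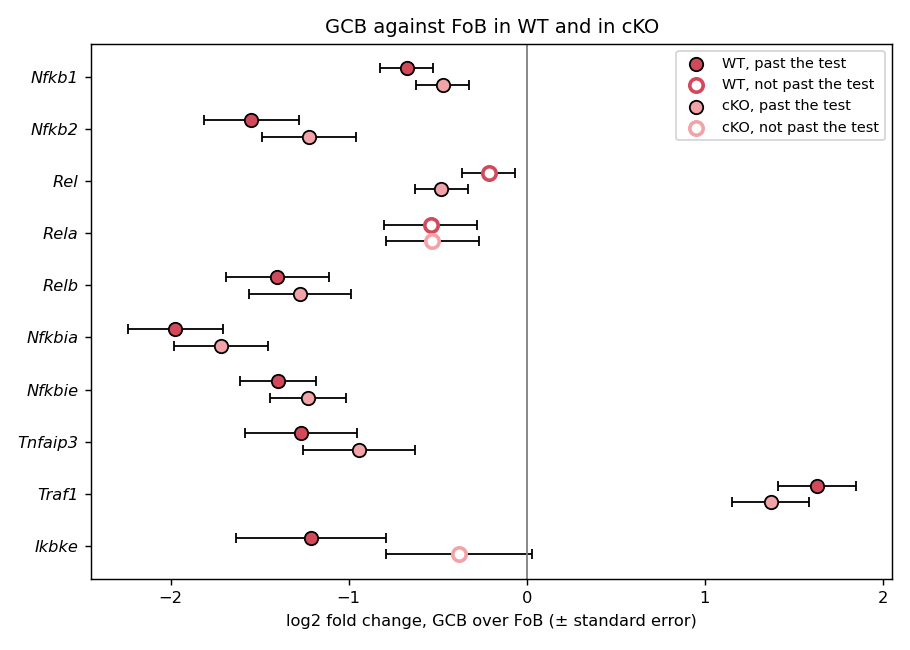
Log2 fold change of GCB over FoB for each member in WT and in cKO, with bars of 1 standard error from the edgeR fit over 12 libraries; filled points passed an adjusted p of 0.05. Nfkbia lies farthest to the left at -1.97 and -1.72, and Traf1 alone lies to the right of 0.

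Ratios of counts within a library do not depend on scaling between libraries, though each also reflects transcript length, so they are compared between groups and not read as molar ratios. The ratio of Traf1 to Nfkbia was 0.217 to 0.371 in the 6 FoB libraries and 1.98 to 3.96 in the 6 GCB libraries. Nfkbia over Rela was 0.947 to 1.45 in FoB and 0.344 to 0.628 in GCB, a lower share of inhibitor counts beside subunit counts in every GCB library. Nfkb2 over Nfkb1 was 0.486 to 0.703 in FoB and 0.247 to 0.426 in GCB. Relb over Rela was 0.460 to 0.572 in FoB and 0.259 to 0.336 in GCB. None of these 4 ratios overlapped between the cell types. This restates the unequal changes of the same members above and is not separate evidence. The share of such ratios among pairs of all genes was not computed. Rel over Rela did overlap, at 1.25 to 2.35 in FoB and 1.17 to 2.78 in GCB.

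The second comparison asks whether deletion of Rock2 changed the members. In GCB, edgeR called none of the 10 members between cKO and WT, where 0.102% of all genes were called (14 of 13708). DESeq2 also called 0 members, and 130 of all genes. An unadjusted p below 0.05 was reached by 1 of the 10 members, Ikbke, and by 673 of 13708 genes. The median log2 difference of the members was 0.20, against -0.003 for all genes. The differences ran from -0.23 for Traf1 to 0.99 for Ikbke, and 8 of the 10 were above 0.

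Ikbke was the member with the largest genotype difference in GCB. Its level in GCB was 7.73 ± 2.03 CPM without the Cre and 15.3 ± 5.70 CPM with it (SD, n = 3 each), and the lowest cKO library, at 9.86, lay above the highest WT library, at 8.98. It was alone among the members in this, and 8.37% of all genes did not overlap between these groups. The log2 difference was 0.99 ± 0.42, with a 95% interval of 0.07 to 1.90 and an edgeR adjusted p of 0.9001. Within numbers 1, 2 and 3 it was 1.23, 0.86 and 0.75, so it was higher in cKO in 3 of 3. The share of all genes with the same sign in 3 of 3 numbers was not computed, here or for the members below. With the replicate number in the fit the difference was 0.96 ± 0.16 and the edgeR adjusted p 0.008, in a fit that called 2.14% of all genes, and with cKO GCB 1 left out of that fit it was 0.93 with an edgeR adjusted p of 0.0334. The authors' deposited table gives Ikbke a log2 fold change of 0.99 in GCB, with p = 0.00129 and a false discovery rate of 0.108. The naive follicular markers summed to 864, 888 and 823 CPM in WT GCB numbers 1 to 3 and to 1317, 1105 and 786 in cKO GCB. Their part in the Ikbke difference was not tested. The mean Ikbke level in FoB was 17.9 ± 7.83 CPM in WT and 19.9 ± 8.73 CPM in cKO.

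The other members overlapped between genotypes in GCB. Nfkb2 came next, with means of 82.4 ± 25.7 CPM (WT) and 111 ± 29.2 CPM (cKO). The log2 difference was 0.43 ± 0.26 with a 95% interval of -0.14 to 1.00 (edgeR adjusted p = 1.00, and 0.062 with the replicate number in the fit). It was higher in cKO in 3 of 3 numbers. Nfkbia differed by 0.29 ± 0.26 (interval -0.28 to 0.85) and Nfkbie by 0.26 ± 0.21 (interval -0.20 to 0.72). For Nfkb2, Nfkbia, Nfkbie and Relb the number 1 pair gave the largest difference, 0.62 to 0.69, while numbers 2 and 3 gave -0.02 to 0.34. Traf1 was lower in cKO GCB in 3 of 3 numbers, by -0.23 ± 0.21 (interval -0.69 to 0.24). Rela differed by 0.01 ± 0.26 (interval -0.56 to 0.57), which leaves room for a change of either sign.

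**Figure D4:**
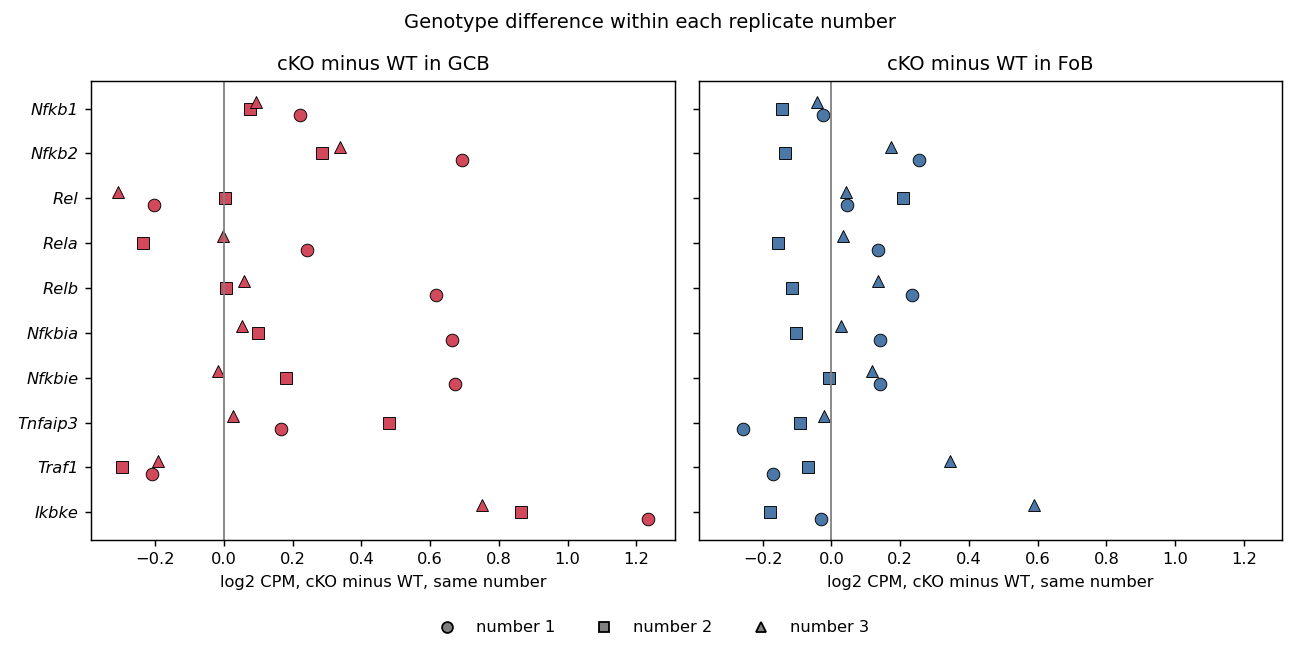
Difference in log2 CPM between the cKO and the WT library of the same number, for each member, in GCB and in FoB; the marker shape gives the number. All 3 Ikbke points in GCB lie between 0.75 and 1.23, and the FoB points of most members lie on both sides of 0.

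In FoB, edgeR called 0 of the 10 members, 0 had an unadjusted p below 0.05 and DESeq2 called 0, where 0% of all genes were called by edgeR with or without the replicate number in the fit. Over all genes, 95 had an unadjusted p below 0.05 and DESeq2 called 4. No member separated the genotypes, against 2.20% of all genes. All log2 differences lay between -0.13 and 0.16. For Nfkbia the interval was -0.54 to 0.59 and for Ikbke -0.74 to 1.05. The difference between the genotype effects in GCB and in FoB was called for none of the members by edgeR (0.0073% of all genes, or 1), by edgeR with the replicate number (0.263% of all genes) or by DESeq2 (20 of all genes), and 0 members had an unadjusted p below 0.05, against 371 of all genes. The largest, Ikbke, was 0.83 ± 0.59 with an interval of -0.45 to 2.11 (edgeR adjusted p = 1.00).

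Much of the spread within groups followed the replicate number. Within every group, number 3 held the highest level of Nfkb2, Rela and Relb, while number 1 held the highest level of Tnfaip3 and Ikbke. Number 2 held the lowest level of Nfkbia, Tnfaip3, Traf1 and Ikbke in 4 of 4 groups, and number 3 the lowest of Rel. With the mean of each cell type taken off, log2 CPM of Nfkb2 and Relb correlated at r = 0.96 over 12 libraries, Nfkb2 and Nfkbie at 0.95, and Rela and Relb at 0.93. Rel ran the other way, at -0.76 with Nfkb1 and -0.72 with Nfkb2. These libraries share cell types, numbers and depth, so the values describe this set only.

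By likeness of log2 CPM over the 12 libraries, the non-member genes closest to Nfkbia were Fam43a, Pim3 and Ncf4, each at r = 0.99. Closest to Nfkb2 were Rara, Setd1b and Vps37b, also at 0.99. For Nfkb1 they were Hcfc1r1, Os9 and Sgsh at 0.98. With the cell type means taken off, the closest were Zdhhc4, Sema4b and Zer1 for Nfkbia, Fbxo31, Dusp7 and Foxk1 for Nfkb2, and RP23-388A14.1, Pigt and Os9 for Nfkb1, so of these only Os9 was named on both scales. These genes were picked as the highest among all tested, and both scales also carry the difference between numbers.

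The other genes of the pathway were followed in 4 lists, whose members were chosen with earlier results of these data known. Their counts stand beside the 22.8% of all tested genes that fell and 25.6% that rose in WT, and 21.8% and 24.8% in cKO. In the fit blocked by replicate number these shares were 34.3% and 35.2% in WT, and 34.3% and 34.7% in cKO. Of the kinase complex and its adaptors, 10 of 28 tested genes fell in WT GCB and 0 rose. They were the cIAP gene Birc3 at -1.76 on the log2 scale, the catalytic kinase Ikbkb at -1.05, Map3k14 of the non-canonical route at -1.01, Rnf31 of the linear ubiquitin complex at -0.89, Prkcb at -0.85, Malt1 at -0.83, Traf3 at -0.80, the scaffold Ikbkg at -0.62, Irak1 at -0.54 and Ripk1 at -0.51. The list median was -0.23. With the replicate number in the fit 14 fell and 3 rose, and in cKO GCB 9 fell, or 17 fell and 2 rose with the number in the fit. Bcl10, at -0.72, was past the test in cKO.

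Of the other IκB proteins and negative regulators, 9 of 18 fell in WT GCB and 1, the linear deubiquitinase Otulin at 0.48, rose. The nuclear IκB protein gene Nfkbid was at -2.38 on the log2 scale, Zc3h12a at -1.79, the deubiquitinase Otud7b at -1.75, Bcl3 at -1.68 and Pdlim2 at -1.27. Tax1bp1 was at -0.92, Tnip2 at -0.80, Itch at -0.61 and N4bp1 at -0.55. The list median was -0.71, and in cKO 10 fell, with Rnf11 (-0.89) among them, and 0 rose. In the blocked fit 12 fell and 2 rose in WT, and 11 fell and 2, Otulin and Commd1, rose in cKO. Without WT FoB 1 and cKO GCB 1 the number called in WT was 6.

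Of 20 receptors that feed the pathway, 18 were tested, 11 fell in WT GCB and 0 rose. By the blocked fit 15 fell and 1, Cd180 at 0.43, rose in WT, and 15 fell and 0 rose in cKO. The endosomal RNA sensor Tlr7 was at -3.93 on the log2 scale, Cd27 at -2.88, Tlr2 at -2.28, Tnfrsf9 at -1.95, Cd40, the receptor for help from T cells, at -1.58, and Tlr1 at -1.44. Cd27 and Tnfrsf9 were low, at 2.00 and 0.90 CPM in WT FoB and 0.27 and 0.23 in WT GCB. On the log2 scale the antigen receptor chains Cd79a and Cd79b were at -1.36 and -0.80, Tnfrsf13b at -0.87, Tlr9 at -0.80 and Tnfrsf1b at -0.46. The BAFF receptor gene Tnfrsf13c, which sustains follicular B cells, was at -0.06 and did not pass (edgeR adjusted p = 0.783). In cKO it was at -0.45 (edgeR adjusted p = 0.0437). The list median in WT was -0.88, and in cKO 12 fell and 0 rose.

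Of 41 textbook targets of NF-κB, 38 were tested, 18 fell in WT GCB and 6 rose. The list thus moved in both directions, with a median of -0.98. The homing receptor gene Ccr7 was at -5.02 on the log2 scale, the chemokine genes Ccl4, Ccl3 and Ccl5 at -4.69, -3.44 and -2.88, the survival gene Bcl2 at -3.76, Gpr183 at -3.40, the cyclin genes Ccnd2 and Ccnd1 at -3.04 and -1.37, and Junb at -2.71. Ccl4, Ccl3, Ccl5 and Ccnd1 were low in WT GCB, at 0.05, 0.34, 1.04 and 0.65 CPM. The factors Irf4, Irf1 and Myc were at -2.28, -1.98 and -1.38 on the log2 scale. Birc3, which is on 2 of the lists, was at -1.76, Tapbp at -1.51, Cd83 at -1.16, Ebi3 at -1.07, Cflar at -1.06 and Cxcr5 at -1.01. Those that rose were the death receptor gene Fas at 3.71, Gadd45b at 1.81, the survival gene Bcl2l1 at 1.55, Cd80 at 1.20, Cd44 at 0.85 and Plek at 0.74. Ccr7, Gpr183 and Fas are also on the marker lists for follicular or germinal center cells. In cKO, 18 fell and 8 rose. In the blocked fit, 21 fell and 9 rose in WT, and 19 fell and 10 rose in cKO. Among those past the test in cKO were the chemokine gene Ccl22 at 2.57, Il10 at 2.76 (from 0.07 to 0.52 CPM), Bcl2a1d at 0.57 and Ltb at -1.09. Bcl2a1d has near-identical copies, and its reads may be split among them. None of the genotype differences in these changes passed edgeR for any of the 4 lists, where 0.0073% of all genes did. With the replicate number in the fit 3 targets did, Ccl22 at 2.14, Gpr183 at 1.31 and Ccnd2 at 1.295. That fit called 0.263% of all genes.

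**Figure D5:**
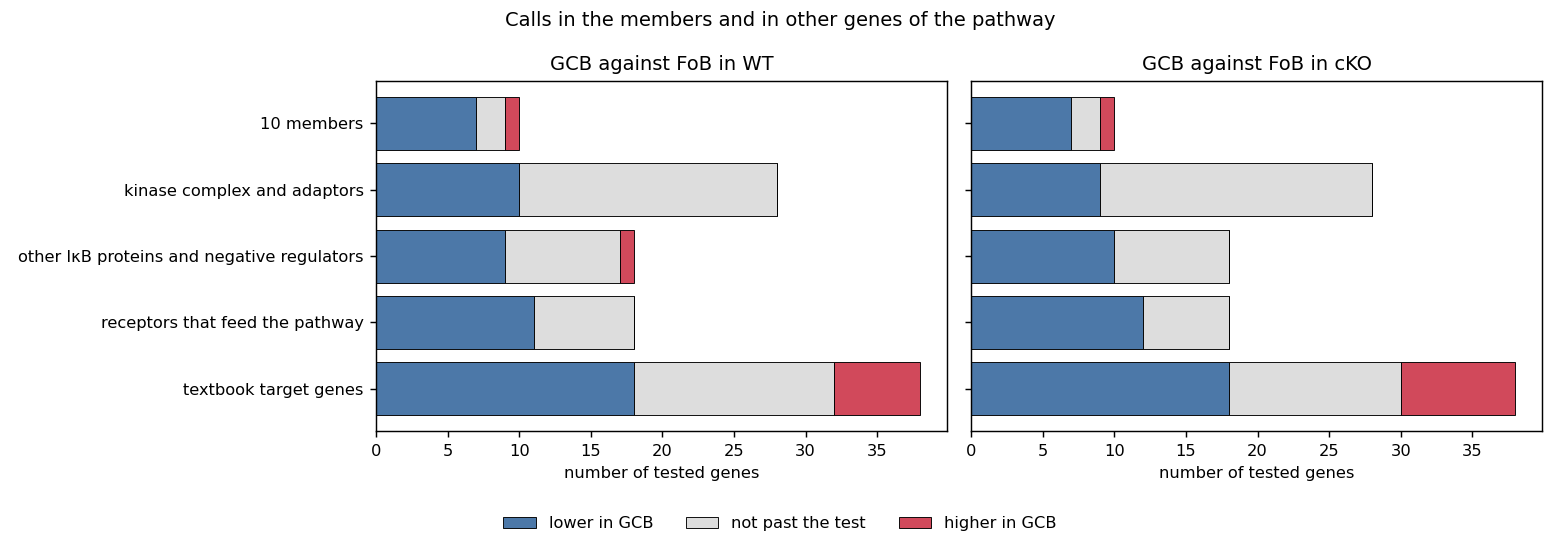
Number of tested genes that were lower in GCB, higher in GCB or not past the edgeR test, for the 10 members and 4 lists of other genes of the pathway, in WT and in cKO. In this fit, without the replicate number, no receptor or kinase gene was called higher in GCB, while 6 and 8 target genes were.

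Between the genotypes in GCB, where 0.102% of all genes passed the test, 1 gene of the 4 lists did. It was the target Ccnd2, which drives entry into the cell cycle. Its level was 23.4 ± 4.41 CPM in WT and 58.1 ± 14.7 CPM in cKO (SD, n = 3 each). The log2 difference was 1.31 ± 0.20 (edgeR adjusted p = 0.0406). Without a call were Gpr183 at 1.33 (edgeR adjusted p = 0.0548) and Tlr7 at 1.502 (0.360), and in the other lists the smallest p belonged to Traf5 at -0.33, Birc3 at 0.17, Tnip3 at 1.96, Otud7b at 0.27 and Tnfrsf13c at -0.31. Tnip3 was low, at 0.09 CPM in WT GCB and 0.38 in cKO GCB. With the replicate number in the fit 7 targets were higher in cKO GCB, by 0.89 to 1.43 on the log2 scale. These were Ccnd2, Gpr183, Bcl2, Ccr7, Irf4, Cd80 and Ccl22, and Tlr7 of the receptors was also higher. That fit called 2.14% of all genes in this comparison. Ccr7 and Gpr183 are among the 8 naive follicular markers whose sum is given above, and the part of such cells in these differences was not tested. Without the block, 0 targets were called when WT FoB 1 and cKO GCB 1 were left out, with DESeq2's size factors, on the compared groups alone or without number 2, and leaving out single libraries gave 0 to 5. In FoB no listed gene passed. The smallest p in each list belonged to Bcl10 at 0.30 and Prkcb at -0.08, N4bp1 at 0.14 and Rnf11 at 0.29, Cd27 at -0.27 and Cd180 at -0.16, and Ccl22 at -0.80 and Fas at -0.47 on the log2 scale.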

How the data were processed

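The authors' deposited table gives raw read counts per gene for 12 RNA-seq libraries of polyadenylated RNA, prepared with Nextera per the labels' protocols. The submitters' processing notes name mm10, Bowtie2 and edgeR, without the role of each. The authors' deposited results table gives log2 fold changes and p-values of cKO over WT. The 4 ATAC-seq samples were not used here.

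From the counts, edgeR 4.0.16 (R 4.3.3, limma 3.58.1) computed TMM-scaled CPM and quasi-likelihood tests in 1 fit over the 4 groups, after its default filter on low counts, with Benjamini-Hochberg adjustment over 13708 genes and a threshold of 0.05. The standard error is the log2 fold change over the square root of F, and 95% intervals come from the same fit. Log2 CPM used a prior count of 2. The steps were tried on simulated data, for some of the comparisons. The simulated counts held no effect of replicate number, so they cannot show how the tests handle that effect. Alternatives were DESeq2 1.42.0, its size factors, other filters, fits with the replicate number as a block and fits without single libraries. Members and lists were chosen with earlier results of these data known. Every member is printed with each library's value. Genes of the lists are named where they passed the test, and otherwise as the 2 with the smallest p in a list. Likeness names the 3 closest genes for Nfkb1, Nfkb2 and Nfkbia.

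Libraries that share a number but not a group deviated together from their group means, with correlations of 0.478 to 0.753 over 18 pairs against -0.654 to 0.0952 over 36 pairs of different numbers. The numbers come from the labels, which do not say what they stand for, and the pairing rests on these correlations.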

Additional observations from a re-analysis of the deposited data

Results flagged for a closer look

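For 2 members the cKO library was above the WT library of its number in all 3 GCB pairs and below it in all 3 FoB pairs. The share of all genes with this pattern was not computed. Some of these differences were near 0, such as 0.025 in GCB and -0.020 in FoB for Tnfaip3, and -0.025 in FoB for Nfkb1. For Nfkb1 the difference of the genotype effects was 0.20 ± 0.21 on the log2 scale, and for Tnfaip3 it was 0.33 ± 0.44. In the edgeR fit over all genes neither difference passed, with an adjusted p of 1.00 for each, so no difference between the cell types is shown. With the replicate number in the fit the edgeR adjusted p was 0.859 for Nfkb1 and 0.887 for Tnfaip3, and DESeq2 called neither. Leaving out single libraries, the difference of effects for Nfkb1 ran from 0.11 to 0.31. For Tnfaip3 the genotype difference in GCB then ran from -0.15 to 0.56, so its sign depended on single libraries. Groups of 3 libraries are too small to tell an outlying library from the spread within a group.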

How the results depend on the processing

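Of the 5 counts of called members, 3 stayed within 1.5 times under every alternative tried: 7 to 10 in WT, where 8 were called, and 0 in FoB and in the difference between cell types. In cKO the count of 8 went from 5 without number 2 in all groups to 9 with the replicate block, and leaving out single libraries gave 6 to 7. In GCB between genotypes it was 1 (Ikbke) with the replicate block and with the block without cKO GCB 1, and 0 otherwise. Among the members, the block changed no other call than those of Rel, Rela and Ikbke given above. No called member changed sign in any of the alternatives run. Without the filter on low counts Nfkb1 in cKO had an edgeR adjusted p of 0.052. Without number 2, Nfkb1, Rel and Tnfaip3 in cKO had 0.127, 0.0615 and 0.0515, and without WT FoB 1 and cKO GCB 1, Nfkb1 had 0.0542. The cause of these changes was not tested.

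Uncalled differences of genotype near 0 changed sign. Rela was at 0.0021 in FoB under a filter of 5 CPM, at 0.0641 there without number 2, and at -0.15 in GCB and -0.15 in the difference of effects with the block without cKO GCB 1, where Relb was at -0.0325 in the difference. Without WT FoB 1 and cKO GCB 1, Tnfaip3 was at -0.15 in GCB, 0.0343 in FoB and -0.18 in the difference, and Nfkb2, Relb and Nfkbia in FoB were at -0.0278, -0.0667 and -0.0124. Leaving out single libraries, Rela ran from -0.20 to 0.22 and Tnfaip3 from -0.15 to 0.56 in GCB. In FoB, Nfkb1 ran from -0.19 to 0.0153, Nfkb2 from -0.10 to 0.26, Rela from -0.21 to 0.17, Relb from -0.16 to 0.29, Nfkbia from -0.10 to 0.16, Nfkbie from -0.0800 to 0.23, Tnfaip3 from -0.23 to 0.0334, Traf1 from -0.11 to 0.25 and Ikbke from -0.0892 to 0.55. In the difference of effects, Rela ran from -0.20 to 0.23, Relb from -0.0832 to 0.43 and Tnfaip3 from -0.0144 to 0.69.

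Over all genes, the 14 called between genotypes in GCB became 293 with the block, 135 with the block without cKO GCB 1, 130 with DESeq2, 62 without the filter, 7 without WT FoB 1 and cKO GCB 1, 5 with only the compared groups, 1 without number 2, and 5 to 58 without single libraries. In FoB, DESeq2 called 4 and the fit without the filter 5. Of the 38 targets, DESeq2 called 6 in GCB between genotypes, the fit without the filter 5, the stricter filter 2, and size factors of DESeq2 0, as did the fit on the compared groups and the one without number 2. A comparison of levels between genes per kilobase was not run, since no transcript lengths were used here. The intervals printed above limit what 3 libraries a group can tell of uncalled differences.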
